A study of Mus musculus with 3 samples.

Results

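Imprinted genes are transcribed mainly from the copy inherited from 1 parent. The 10 genes described here are imprinted regulators of growth and imprinted long noncoding RNAs: H19, Meg3, Rian, Mirg, Dlk1, Peg3, Peg10, Plagl1, Grb10 and Mest. They were taken by symbol from a count table of 44788 genes, and each of the 10 was found there once. The libraries are bulk RNA-seq of cultured primary chondrocytes from knee joint cartilage of C57BL/6 mice, and all of the cells carried floxed alleles of Kdm6b. In the 2 cKO libraries the cells also carried Col2a1-CreERT2, a tamoxifen-activated recombinase driven by a promoter active in chondrocytes, and in the 1 control library they did not. Both genotypes received 1 µM 4-hydroxytamoxifen for 48 h, so the recombinase itself and the loss of Kdm6b, a gene for a histone H3 lysine 27 demethylase, cannot be told apart in this comparison. No source used here gives the age of the mice, or says whether a library came from 1 animal or a pool.

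Imprinting is set in the germ line by DNA methylation at control regions, which keeps 1 parental copy silent in the body's cells. Many imprinted genes act on fetal and early postnatal growth, with paternally expressed genes often promoting it and maternally expressed genes often restraining it, although single genes depart from this. Several belong to a set that is highly expressed in fetal tissues and declines together as growth slows after birth. Gene-level counts from an inbred strain do not show which parental copy a read came from.

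The members lie in several imprinted domains, and the results below set Dlk1 beside its neighbour Meg3 and give falls for the zinc-finger genes Peg3 and Plagl1. The RefSeq promoter windows of these 4 genes (GRCm38.p6) are printed to show how they differ in CG dinucleotides, the sites of DNA methylation, which are in capitals. Each holds the 250 bases before the annotated start, 5′ to 3′ on the gene's strand.
Dlk1, chr12:109452573-109452822, plus strand: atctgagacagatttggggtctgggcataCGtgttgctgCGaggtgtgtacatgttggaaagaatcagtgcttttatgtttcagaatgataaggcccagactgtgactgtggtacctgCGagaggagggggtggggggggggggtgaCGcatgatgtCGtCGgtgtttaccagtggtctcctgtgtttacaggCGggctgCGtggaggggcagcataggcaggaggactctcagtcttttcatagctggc
Meg3, chr12:109540746-109540995, plus strand: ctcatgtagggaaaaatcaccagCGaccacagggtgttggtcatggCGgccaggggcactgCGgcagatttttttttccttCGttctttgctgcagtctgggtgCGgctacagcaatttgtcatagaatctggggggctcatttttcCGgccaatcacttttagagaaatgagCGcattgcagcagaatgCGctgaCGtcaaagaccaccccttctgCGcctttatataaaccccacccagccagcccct
Peg3, chr7:6730420-6730669, minus strand: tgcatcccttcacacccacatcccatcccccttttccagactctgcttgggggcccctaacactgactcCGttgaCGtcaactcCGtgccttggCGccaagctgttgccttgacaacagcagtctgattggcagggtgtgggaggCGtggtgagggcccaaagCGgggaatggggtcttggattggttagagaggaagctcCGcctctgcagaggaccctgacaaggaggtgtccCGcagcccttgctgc
Plagl1, chr10:13090582-13090831, plus strand: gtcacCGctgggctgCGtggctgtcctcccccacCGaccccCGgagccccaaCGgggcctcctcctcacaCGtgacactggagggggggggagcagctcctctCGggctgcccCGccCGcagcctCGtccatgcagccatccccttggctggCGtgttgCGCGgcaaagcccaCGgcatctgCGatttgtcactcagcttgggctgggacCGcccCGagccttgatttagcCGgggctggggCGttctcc
Of the 10 members, 8 had a window in the RefSeq table, and Meg3 has a second, downstream one. The Plagl1 window lies inside the gene as GENCODE M21 places it (chr10:13060504-13131694), so it precedes an internal start. The Plagl1 window held 19 CG dinucleotides, the Meg3 window 10, and the Dlk1 and Peg3 windows 8 each, against a median of 6 over 32851 windows of the same length (quartiles 2 and 16). The palindrome TGACGTCA, the full cyclic AMP response element, began 178 bases before the Peg3 start and 57 bases before the Meg3 start, and its middle letters are a CG. It was found on either strand in 1.55% of all windows. Neither the Dlk1 nor the Plagl1 window held these letters. These matches describe the windows and were searched after the sequences had been seen.

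Depth ran from 12489738 to 12636471 counts per library. Kdm6b counts were 1049 (cKO replicate 1), 948 (cKO replicate 2) and 1289 (control), and the gene did not pass the test (log2 -0.39 ± 0.14 SE, adjusted p = 0.138 in edgeR). A gene-level count can also hold reads from exons outside a deleted part, so this is a weak check of the genotype labels. Xist, the RNA of the inactive X chromosome, was counted 10081 times in cKO replicate 2 but 2 times in cKO replicate 1 and 1 time in the control, and 4 Y-linked genes were at 0 in cKO replicate 2 alone. The pair of cKO replicate 1 and the control is therefore alike in sex-linked transcripts, and values of that pair alone are given beside the results. The labels do not say how the cKO libraries were cultured, but their sex-linked counts differ, so they are not repeats of the same RNA. A p-value here rests on the spread between these 2 libraries and measures nothing wider. For each gene edgeR pulls that spread toward a trend over all genes, with 19.9 prior degrees of freedom against 1 residual one. The spread between the 2 cKO libraries includes their difference in sex-linked transcripts. Of 12 fixed chondrocyte markers 11 fell in edgeR, against 1.90% of all genes tested. The number called lower was 12 in limma-voom, 10 in DESeq2 and 0 in edgeR with no filter on low counts. The summed level was 26347 CPM in the control and 15530 and 14551 CPM in cKO, where CPM is counts per 1000000 of the TMM-scaled library. The exception in edgeR, Col2a1, was also lower in both cKO libraries and made up most of that sum (12527 and 11984 CPM in cKO, 20116 in the control, adjusted p = 0.283 in edgeR).

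Expressed per kilobase of annotated exon, so that genes can be set side by side, H19 and Mest were far above the other members in every library. H19, a noncoding RNA of fetal and regenerating tissues that restrains growth, lay at 1500, 1240 and 1658 CPM per kb in cKO replicate 1, cKO replicate 2 and the control. These levels ranked it at places 6, 10 and 6 among 30936 genes with a length. Mest, which encodes a protein of the alpha/beta hydrolase fold, lay at 1245, 1179 and 1569 CPM per kb, and its cKO range overlapped that of H19. Together the 10 members took 1.13% and 1.05% of all counts in cKO and 1.40% in the control.

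The order below them was the same in each library. Grb10 lay at 94.2, 90.2 and 106 CPM per kb, Peg3 at 50.3, 43.5 and 87.9, and Plagl1 at 33.999, 32.7 and 54.3. Meg3 followed at 31.1, 28.1 and 34.5 CPM per kb, Peg10 at 18.4, 20.8 and 31.6, and Rian at 15.5, 15.3 and 18.5. Dlk1 and Mirg were the lowest, Dlk1 at 8.05, 7.33 and 4.02 CPM per kb and Mirg at 2.60, 2.34 and 2.51. Plagl1 and Meg3 were the closest neighbours in cKO, yet their ranges there did not overlap. Lengths are those of all annotated exons joined, which for Meg3 and Rian come to 18089 and 18234 bases, and so these levels are lower than a value for 1 processed transcript would be.

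**Figure D1:**
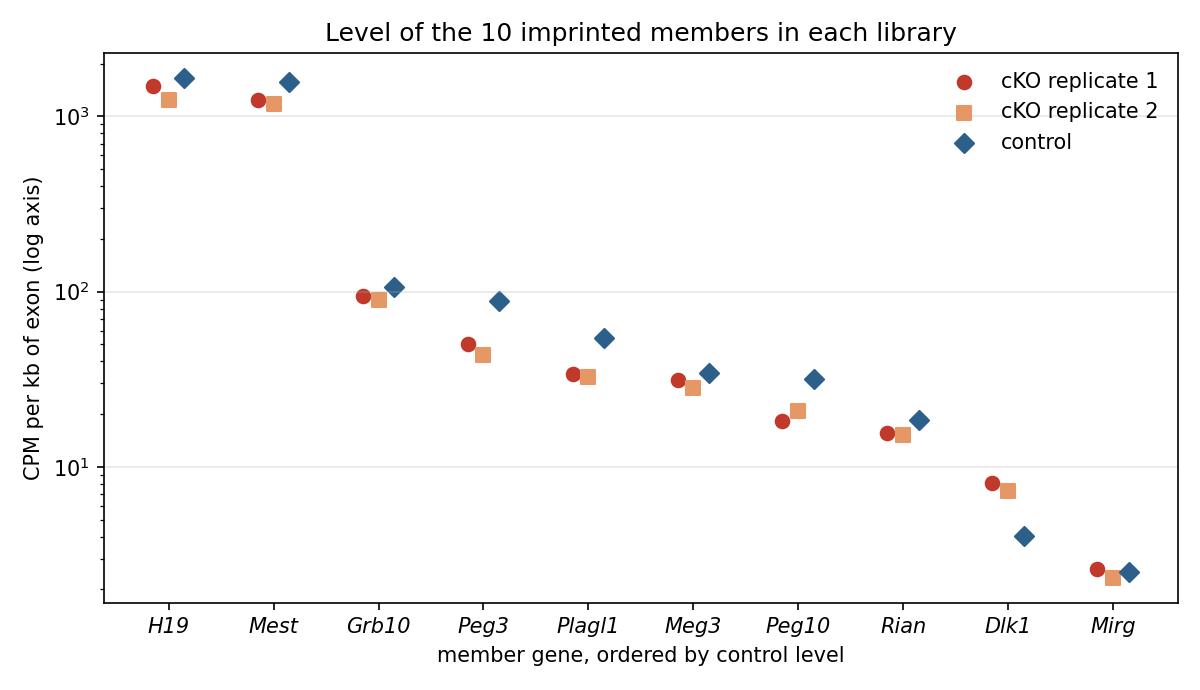
Level of each member in CPM per kb of annotated exon (log axis), with 1 point for each of the 3 libraries and the genes ordered by their control level. H19 and Mest stand at 1179 CPM per kb or more in each library, and Dlk1 is the one member whose 2 cKO points both lie above the control.

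In cKO chondrocytes 3 of the 10 members fell (Peg3, Peg10 and Plagl1) and 1 rose (Dlk1), while 6 did not pass the test over all genes. Among the 15529 genes tested 1.90% were lower and 3.01% higher by the same rule, an adjusted p under 0.05 in edgeR's quasi-likelihood test, and 4.91% were called in either direction. Those are 467 genes higher and 295 lower, a split that became 227 and 89 with library sizes from column totals alone. All 10 members passed the filter on low counts. Their median log2 fold change was -0.27, against -0.00223 over all genes tested. Both cKO libraries lay below the control for 8 members, above it for Dlk1 and on either side for Mirg, where 37.4% of all genes tested had both below and 36.6% both above. In bulk RNA, fewer cells of a type and less RNA per cell cannot be told apart.

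Peg3, a paternally expressed gene for a zinc-finger DNA-binding protein, had the largest fall. It lies at chr7:6703892-6730431 on the minus strand (GENCODE M21, GRCm38, as for each position that follows). Its counts were 8342 (cKO replicate 1), 7415 (cKO replicate 2) and 14536 (control), or 670, 579 and 1172 CPM, with a cKO mean of 625 ± 63.9 (SD, n = 2). Both cKO libraries were well below the control and close to each other. The log2 fold change was -0.91 ± 0.15 (SE), a level 1.88-fold lower in cKO (adjusted p = 0.000490 in edgeR), and it was -0.81 in cKO replicate 1 alone.

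Plagl1, also known as Zac1, encodes a zinc-finger transcription factor that can arrest the cell cycle. It lies at chr10:13060504-13131694 on the plus strand. In the same order, its counts were 3311, 3274 and 5265, or 266, 256 and 424 CPM, with a cKO mean of 261 ± 7.10 (SD, n = 2). The 2 cKO libraries were nearly equal, and the control stood above both. The log2 fold change was -0.70 ± 0.13 (SE), 1.63-fold lower (adjusted p = 0.00177 in edgeR), and -0.67 in cKO replicate 1 alone.

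Peg10, a gene derived from a retrotransposon and needed for the placenta, lies at chr6:4747306-4760517 on the plus strand. Its counts were 1528, 1776 and 2610, or 123, 139 and 210 CPM, with a cKO mean of 131 ± 11.4 (SD, n = 2). The cKO libraries differed a little more from each other than for Plagl1, and neither reached the control. The log2 fold change was -0.69 ± 0.13 (SE), 1.61-fold lower (adjusted p = 0.00244 in edgeR), and -0.78 in cKO replicate 1 alone.

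Dlk1 was the member that rose. It encodes a membrane protein with EGF repeats, related to Notch ligands, that marks preadipocytes and restrains their differentiation. It lies at chr12:109452823-109463336 on the plus strand. Counts were 567, 531 and 282, or 45.5, 41.5 and 22.7 CPM, with a cKO mean of 43.5 ± 2.85 (SD, n = 2). Both cKO libraries lay well above the control and close together. The log2 fold change was 0.94 ± 0.17 (SE), 1.91-fold higher (adjusted p = 0.00120 in edgeR), and 1.00 in cKO replicate 1 alone.

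Muscle and fat cells are known for high levels of some of these genes. The muscle markers were low or at 0, and some fat-cell markers were not. Of 10 myoblast and muscle markers, Myog, Myf5, Pax7 and Ckm were at 0 in every library, and the summed level was 6.34 and 6.09 CPM in cKO and 5.56 in the control. Of 8 fat-cell markers 5 were tested and 0 passed, in edgeR, limma-voom and DESeq2 alike, with 0 at an unadjusted p under 0.05 in edgeR. The sum of all 8 was 64.6 and 41.3 CPM in cKO, on either side of the 53.0 CPM of the control. Most of it was Lpl, Cebpa and Pparg, and it was near or above the level of Dlk1 in each library. The part of such cells in the Dlk1 values was not tested.

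These 4 calls are modest in size and rest on 1 control library. None of the 10 members differed by 2-fold in both cKO libraries, a rule met by 1.61% of genes upward and 0.494% downward at a mean of at least 5 CPM. At 1.5-fold in each library 1 member was higher, Dlk1, and 3 were lower, Peg3, Peg10 and Plagl1, against 3.36% and 2.21% of genes. Their fall ran alongside that of the chondrocyte markers, led by Matn1 (91.8 CPM in the control, 23.8 and 22.3 in cKO), and its part in these results was not tested. With edgeR's prior degrees of freedom set to 5 in place of the estimated 19.9, none of the 4 passed (adjusted p from 0.0736 for Peg3 to 0.119 for Peg10), though each had an unadjusted p under 0.05.

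**Figure D2:**
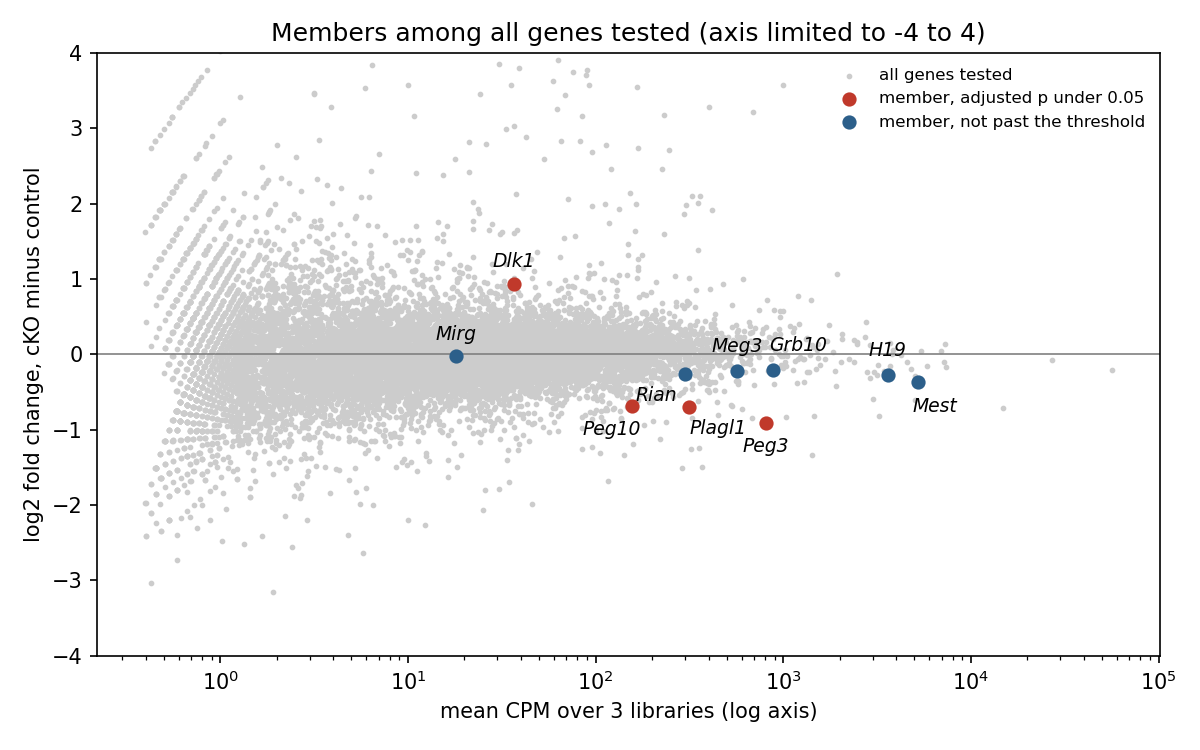
Log2 fold change (cKO minus control) of the 15529 genes tested against mean CPM over the 3 libraries (log axis), with the 10 members marked. The vertical axis stops at 4 in either direction and leaves out 90 genes. Peg3, Peg10 and Plagl1 lie at -0.91, -0.69 and -0.70, Dlk1 at 0.94, and the other members between -0.37 and -0.02.

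The remaining protein-coding members did not pass. Mest (chr6:30723547-30748465, plus strand) had 61191, 59529 and 76816 counts, or 4913, 4651 and 6192 CPM, so both cKO libraries lay below the control. Its log2 fold change was -0.37 with a 95% interval from -0.86 to 0.12 (adjusted p = 0.4997 in edgeR). Grb10, an adaptor that binds the insulin and IGF1 receptors and restrains growth, lies at chr11:11930508-12038683 on the minus strand. It had 10659, 10489 and 11983 counts, again with both cKO libraries below the control. Its log2 fold change was -0.21 (interval -0.53 to 0.12, adjusted p = 0.591 in edgeR). By these edgeR intervals, a fall as large as that of Plagl1 (-0.70) lies inside the interval of Mest and outside that of Grb10. The SE of Mest was 0.24 in this fit but 0.16 in DESeq2 and 0.15 in limma-voom, so its interval depends on the fit. Mest did not pass there either (adjusted p = 0.444 in DESeq2 and 0.195 in limma-voom).

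None of the 4 noncoding RNAs passed. H19 (chr7:142575529-142578143, minus strand) had 45952, 39042 and 50608 counts, or 3689, 3050 and 4079 CPM. The gap between its 2 cKO libraries was larger than that from cKO replicate 1 to the control, and its log2 fold change was -0.28 (interval -0.73 to 0.18, adjusted p = 0.616 in edgeR). Meg3 (chr12:109541001-109571726, plus strand), a noncoding RNA with growth-restraining activity in cell lines, had 7016, 6496 and 7753 counts. Both cKO libraries were below the control, with a log2 fold change of -0.22 (interval -0.53 to 0.08, adjusted p = 0.519 in edgeR).

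Rian (chr12:109603940-109661716, plus strand), the host of a cluster of C/D small nucleolar RNAs, had 3527, 3572 and 4175 counts, with both cKO libraries below the control by a similar amount. Its log2 fold change was -0.26 (interval -0.54 to 0.02, adjusted p = 0.371 in edgeR). Mirg (chr12:109729764-109749460, plus strand), a host of many microRNAs, had 236, 218 and 227 counts, so the control lay between the cKO libraries. Its log2 fold change was -0.02 (interval -0.45 to 0.40, adjusted p = 0.979 in edgeR).

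By the copy that is mainly expressed in most tissues, a grouping from textbook knowledge, the 4 called members are paternally expressed, as is Mest. Of the 5 maternally expressed members (H19, Meg3, Rian, Mirg and Grb10) 0 passed in edgeR, DESeq2 or limma-voom. At an unadjusted p under 0.05 there were also 0 in edgeR, a rule that 15.7% of all genes tested met, so a count of 0 among 5 is not set apart from the background. Their log2 fold changes ran from -0.28 to -0.02. Those of the paternally expressed members ran from -0.91 to 0.94. The difference between these groups was not tested.

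The members' own domains held further changes. In the Dlk1-Dio3 domain on chromosome 12, Dlk1 and Dio3, which flank the domain and are expressed from the paternal copy, rose, and the maternally expressed Meg3, Rian and Mirg between them did not pass. Dio3, the enzyme that inactivates thyroid hormone, had 426, 717 and 314 counts. Its 2 cKO libraries were far apart, and its log2 fold change was 0.83 ± 0.22 (SE, adjusted p = 0.0263 in edgeR), at 0.43 in cKO replicate 1 alone. In DESeq2 Dio3 did not pass (adjusted p = 0.280), nor did it with RLE size factors (adjusted p = 0.0561 in edgeR). Rtl1, the other paternally expressed gene of the domain, was at 0 counts in each library.

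The ratio of Dlk1 to Meg3 counts was 0.0808 and 0.0817 in cKO and 0.0364 in the control, 2.22 and 2.25 times the control ratio. Rian to Meg3 stayed near one value, at 0.503, 0.550 and 0.539, with the control between the cKO libraries. Mirg to Meg3 was 0.0336 and 0.0336 in cKO and 0.0293 in the control, 1.15 and 1.15 times the control ratio. These ratios come from single libraries and were not tested.

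In the Peg3 domain on chromosome 7, Zim1, a maternally expressed zinc-finger gene beside Peg3, fell more than Peg3 itself in each cKO library. Zim1 counts were 871, 789 and 1909, and it was -1.23 ± 0.14 from the control on the log2 scale (SE, adjusted p = 1.67e-06 in edgeR). Usp29, which shares its promoter region with Peg3, had 14, 18 and 30 counts and did not pass (log2 fold change -0.93, adjusted p = 0.397 in edgeR). Beside Peg10, Sgce, which encodes epsilon-sarcoglycan, had 540, 541 and 663 counts and did not pass (log2 -0.32 ± 0.15 SE, adjusted p = 0.305 in edgeR). The difference between Peg10 and Sgce, at 2.83 and 3.28 Peg10 counts per Sgce count in cKO and 3.94 in the control, was not tested.

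H19 shares a control region and enhancers with Igf2, the gene of a fetal growth factor. Igf2 had 35389, 32475 and 41498 counts and did not pass (log2 fold change -0.31 ± 0.20 SE, adjusted p = 0.508 in edgeR). H19 to Igf2 counts stood at 1.298 and 1.202 in cKO and 1.220 in the control, so the control lay between the cKO libraries. In the adjoining Kcnq1 domain Cdkn1c, which encodes the cell-cycle inhibitor p57, fell from 31.9 CPM to 17.9 and 18.5 CPM. This is -0.81 ± 0.18 on the log2 scale (SE, adjusted p = 0.00784 in edgeR), and Cdkn1c did not pass in DESeq2 (adjusted p = 0.282). The noncoding Kcnq1ot1 of that domain had 178, 137 and 198 counts and did not pass (adjusted p = 0.521 in edgeR).

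Next to Grb10, the actin nucleator gene Cobl fell, from 57.2 CPM to 38.1 and 34.5 CPM, by 0.66 ± 0.15 on the log2 scale (SE, adjusted p = 0.0114 in edgeR; 0.284 in DESeq2). Next to Mest, Copg2 had 684, 615 and 743 counts and did not pass (adjusted p = 0.549 in edgeR). Copg2 and Mest overlap by 912 exonic bases on opposite strands, and no source used here says whether the counting used strand, so some Copg2 counts may be Mest reads. Meg3 likewise overlaps the antisense gene Gm26906 by 1228 exonic bases.

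**Figure D3:**
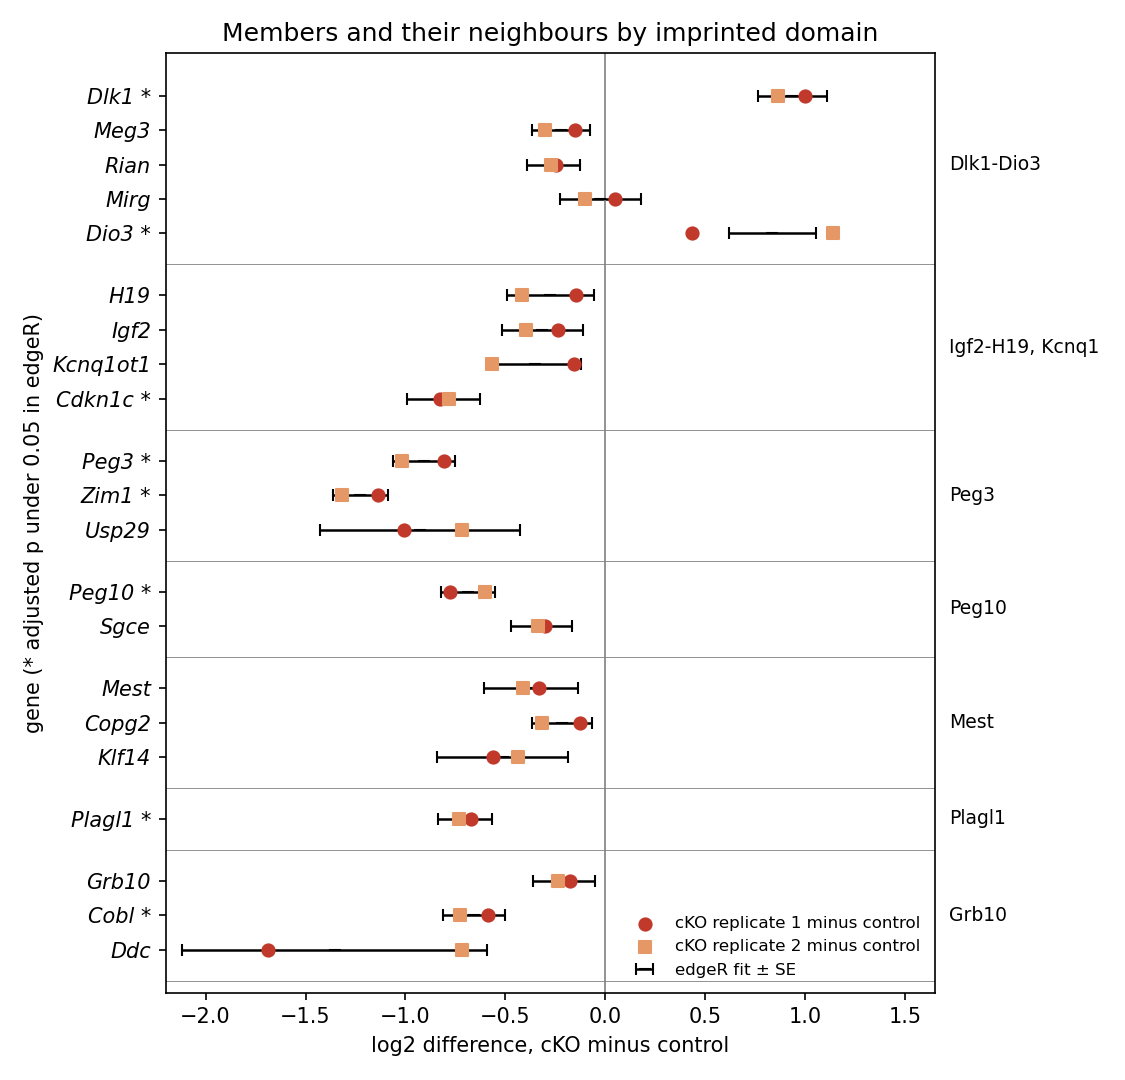
Log2 difference (cKO minus control) of members and neighbours grouped by imprinted domain, with 1 point for each cKO library and a bar for the edgeR estimate ± SE; asterisks mark an adjusted p under 0.05. Peg3 and Zim1 lie left of zero in both libraries, and Dlk1 and Dio3 lie right of it while Meg3 and Rian do not.

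Over all other imprinted genes of the fixed lists, 67 of 73 symbols were in the table and 51 were tested. Of these 3 rose and 4 fell, against 3.01% and 1.90% of all genes, and the median log2 fold change was -0.15. One of the 3, Xist, rests on cKO replicate 2, and without Xist 2 of 50 rose. Snrpn and Snurf had the same counts in each library and are 1 measurement counted at 2 symbols. Besides those named above, Slc38a4, an amino acid transporter gene of the placenta, rose from 8.46 CPM to 16.3 and 14.8 CPM (log2 0.88 ± 0.24 SE, adjusted p = 0.0349 in edgeR; 0.563 in DESeq2). Dcn, the gene of the matrix proteoglycan decorin, which is imprinted in mouse placenta, fell from 345 CPM to 167 and 151 CPM (log2 -1.12 ± 0.13 SE, adjusted p = 4.03e-06 in edgeR). DESeq2 called 2 of the 51 lower, Dcn and Zim1, and 0 higher, and 8 of the 51 had an unadjusted p under 0.05 there, against 6.06% of all genes tested.

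The imprinted gene network, a set of imprinted genes known to be expressed together in growing tissues, had 16 measured genes, 7 of them members. Over all genes tested edgeR called 3.01% higher and 1.90% lower. Of the 16, 2 rose (Dlk1 and Slc38a4), 4 fell (Peg3, Plagl1, Cdkn1c and Dcn) and 10 did not pass in edgeR. Among those 10 was Ndn, the necdin gene, whose cKO libraries both lay above the control (92.3 and 83.7 against 73.7 CPM, adjusted p = 0.420 in edgeR). The median was -0.25. DESeq2 called 1 of the 16 higher and 3 lower, against 226 and 84 of the 15529 genes tested. With prior degrees of freedom of 5, edgeR called 0 higher and 1 lower, against 151 and 42 of all genes. In all, 13 of the 16 were below the control in both cKO libraries and 3 above it, where 37.4% and 36.6% of all genes were.

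The noncoding members are also hosts of small RNAs. GENCODE places 21 named microRNA genes inside H19, Meg3, Rian, Mirg or Mest on the same strand, 20 of which were in the table and 14 had a count. The mature products of the 1 hosted gene within H19, Mir675, are shown with the seed (bases 2 to 8) in capitals, since its row was among the few with enough counts to be tested.
miR-675-5p: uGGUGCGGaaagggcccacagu
miR-675-3p: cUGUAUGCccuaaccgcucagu
Mir675 had 96, 70 and 73 counts (log2 fold change 0.16 ± 0.32 SE, adjusted p = 0.879 in edgeR), and the control lay between the cKO libraries. Mir1906-1, inside Meg3, had 122, 116 and 128 counts, and Mir3072, inside Mirg, had 10, 18 and 7. Neither edgeR, DESeq2 nor limma-voom called any of these 3, and 0 of them were at an unadjusted p under 0.05. The libraries were made from total RNA depleted of ribosomal RNA, and such rows cannot separate mature microRNA from reads of the host transcript or its precursor.

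**Figure D4:**
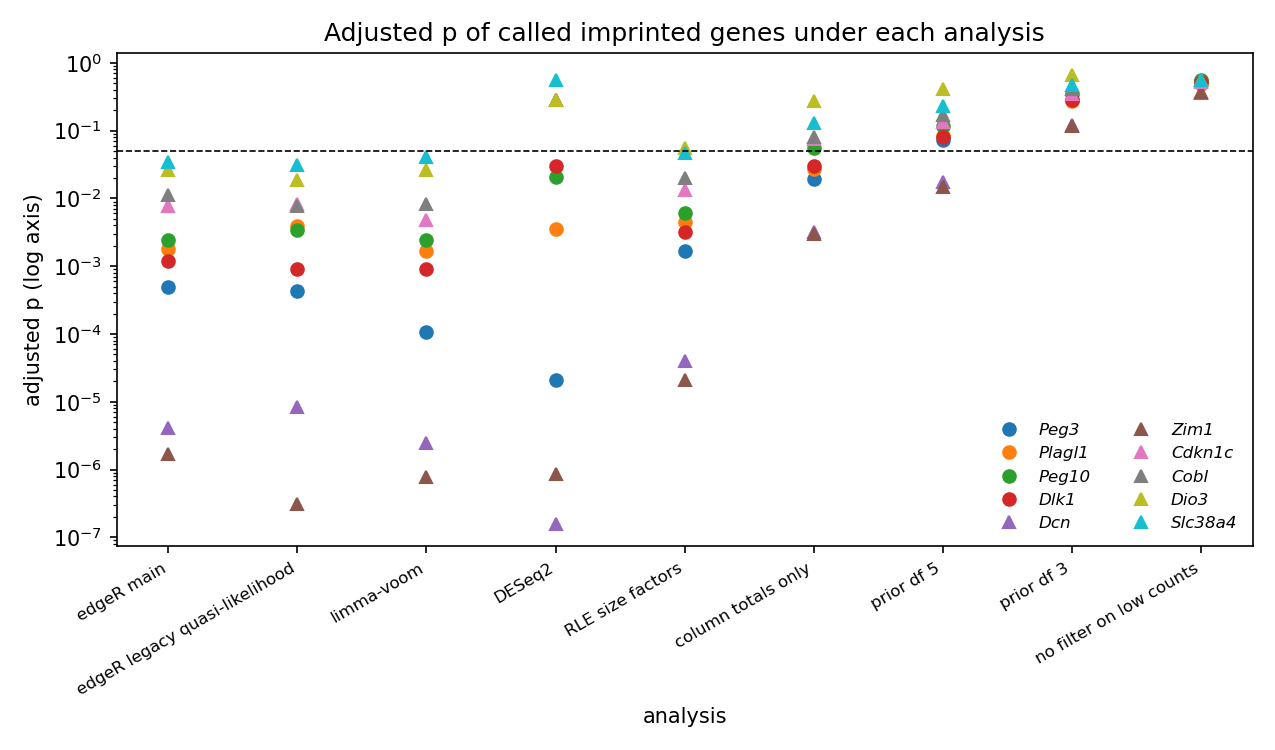
Adjusted p (log axis) of the called members (circles) and of other called imprinted genes (triangles) in each analysis, with the threshold of 0.05 as a dashed line. The 4 members lie under the line in edgeR, limma-voom, DESeq2 and with RLE size factors, and above it with the prior degrees of freedom at 5 or 3 and with no filter on low counts; Peg10 is also above it with column totals.

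Markers of other cell types that a cartilage preparation could hold ran from 0 to abundant. All 5 red-cell markers were at 0. Among the leukocyte markers Cd3e, Itgam and Tyrobp were at 0 in each library, and the summed level was 9.71 and 8.20 CPM in cKO and 4.92 in the control. Within that list Csf1r, a macrophage receptor gene, had 33, 28 and 8 counts (log2 1.89 ± 0.61 SE, adjusted p = 0.0836 in edgeR), and Cd68 had 59, 57 and 32 (adjusted p = 0.293 in edgeR). Both were higher in each cKO library without passing the test. Others on the list did not share this, with Lyz2 at 21, 18 and 19 counts and Laptm5 at 7, 1 and 2. Ptprc, at 1, 1 and 0 counts, was too low to be tested. Of the 6 endothelial markers Cdh5 and Emcn were at 0, and the sum was 3.21 and 2.50 CPM in cKO and 0.806 in the control. Most of it was Vwf, the von Willebrand factor gene, with 24, 27 and 7 counts (log2 1.82 ± 0.65 SE, adjusted p = 0.134 in edgeR). Of 7 osteoblast markers 4 were tested, and 1 fell, Ibsp, against 1.90% of all genes. Ibsp had 120, 156 and 239 counts (log2 -0.82 ± 0.22 SE, adjusted p = 0.0361 in edgeR) and did not pass in DESeq2. Sp7 and Alpl were also below the control in both cKO libraries and Runx2 above it, without passing. Of 6 nerve and glia markers 4 were tested and 0 passed in edgeR.

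Matrix and contractile genes on these lists were far more abundant. The fibroblast and synovium list summed to 20246, 18328 and 20791 CPM, nearly all of it from the collagen genes Col1a1, Col1a2 and Col3a1, while Pi16, Clic5 and Dpt had at most 35 counts in a library. Of the 8 tested 2 rose in edgeR, Thy1 and Prg4, against 3.01% of all genes, and neither passed in DESeq2. Thy1 stood at 50.02 and 20.2 CPM in cKO and 11.2 in the control, so its cKO libraries were far apart. The 5 tendon markers summed to 1287, 1181 and 1559 CPM, mostly Fmod, and the 7 mural and smooth muscle markers to 591, 799 and 634 CPM, mostly Acta2. No tendon or mural marker passed in edgeR, limma-voom or DESeq2. At an unadjusted p under 0.05 edgeR had 1 of each list, a rule that 15.7% of all genes tested met. The tendon marker Thbs4 had 570, 74 and 144 counts, so its cKO libraries lay on either side of the control. The part of these cells in the members' values was not tested.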

How the data were processed

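RNA was measured in 3 libraries of mouse primary chondrocytes. Per the labels' protocols, ribosomal RNA was removed from total RNA and libraries followed an Ion Proton protocol. The authors deposited whole-number read counts per gene symbol. The submitters' processing notes list GRCm38 and GRCh37; no source used here gives the aligner, counting tool, annotation or use of strand. Positions and exon lengths are from GENCODE M21 (GRCm38), where 30936 of 44788 symbols matched 1 gene.

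From the counts, genes kept by filterByExpr were tested with edgeR 4.0.16 in R 4.3.3 (TMM, bias-adjusted quasi-likelihood fit, Benjamini-Hochberg over 15529 genes, threshold 0.05). The fit has 1 residual degree of freedom, so the control is assumed to vary like the cKO libraries. SE is the size of the log2 fold change over the square root of F. Single-library differences use a prior count of 2. DESeq2 1.42.0, limma 3.58.1 (voom), other scalings, filters and prior degrees of freedom were alternatives. The tests were also run on simulated data with the same dispersion for every gene and changes larger than those of the called members. Such data cannot support the members' calls. The cKO columns were not 1 library deposited 2 times (chi-square per gene 9.06, 16293 genes). Named genes were all members, Kdm6b, fixed domain neighbours, and list genes past the threshold or among the 4 smallest p at a mean of at least 5 CPM. Some marker and small RNA rows under 5 CPM, such as Csf1r, Cd68, Vwf and Mir3072, were named outside this rule. Not every marker past the threshold is named. Members and lists were chosen with earlier results of these data known.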

Additional observations from a re-analysis of the deposited data

How the results depend on the processing

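The direction of each member's log2 fold change was the same in all 8 alternative fits, and none of the 6 members that did not pass did so in any of them. These fits share the same counts, so their like direction is not separate support. In cKO replicate 1 alone the sign of Mirg was the reverse (0.05). The legacy edgeR fit, chosen after seeing the data, limma-voom and RLE size factors kept 1 member higher and 3 lower. So did DESeq2, with 226 genes higher and 84 lower over all genes and 0 and 2 other imprinted genes. Column totals in place of TMM gave 227 higher and 89 lower over all genes, 1 and 2 members (Peg10 adjusted p = 0.0549 in edgeR) and 0 and 2 other imprinted genes. With prior degrees of freedom of 5, edgeR called 151 genes higher and 42 lower, 0 and 0 members, and 0 and 2 other imprinted genes, and with 3 it called 83 and 4 genes, and 0 members and 0 other imprinted genes in either direction. With no filter on low counts edgeR's estimated prior degrees of freedom fell from 19.9 to 2.03 and it called 0 genes of 24051, 0 members and 0 other imprinted genes in either direction. There 1830 genes, 5 members and 8 other imprinted genes had an unadjusted p under 0.05. With a fold of 1.5 in place of 2 in each cKO library, 1 member was higher and 3 were lower, against 0 and 0. Leaving out 1 cKO library leaves no test, and genes past 2-fold were counted: 554 to 578 higher and 387 to 619 lower, among them 0 to 0 members higher and 0 to 1 lower (Peg3 without cKO replicate 1, at -1.02), and 0 to 2 other imprinted genes higher and 2 to 5 lower. No paired analysis was possible because the control is 1 library whose label has no number. Low counts limit the small RNA rows. In DESeq2, though not in edgeR, Mirg had the largest SE of the members (0.35).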

Other observations

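Factors that keep imprints through cell division, or that remove or add DNA methylation, were measured as a further list. Of 18 such genes, all tested, 0 passed in edgeR, DESeq2 or limma-voom. At an unadjusted p under 0.05 edgeR had 3 and DESeq2 0, where 15.7% and 6.06% of all genes tested met that rule, so the edgeR share is near the background. The 3 were Uhrf1, which guides maintenance methylation (43.3 and 50.1 CPM in cKO, 33.5 in the control, adjusted p = 0.118 in edgeR), the histone methyltransferase gene Ehmt2 (263 and 247 against 204 CPM, adjusted p = 0.238) and the de novo methyltransferase gene Dnmt3a (44.2 and 38.5 against 53.0 CPM, adjusted p = 0.254). The median log2 fold change of all 18 was 0.05.

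Receptors and signalling partners of the members' products were listed too. Of 14 tested genes 0 passed in edgeR, DESeq2 or limma-voom, with 4 at an unadjusted p under 0.05 in edgeR and 1 in DESeq2, against the same 15.7% and 6.06% of all genes. The smallest p was that of Cdkn1a, the gene of the cell-cycle inhibitor p21 (373 and 466 CPM in cKO, 308 in the control, adjusted p = 0.119). Igf1, which signals through the receptor that Grb10 binds, had 48.9 and 51.3 CPM in cKO and 37.8 in the control (adjusted p = 0.178 in edgeR). Irs1, a substrate of the same receptor, had 162 and 140 against 191 CPM (adjusted p = 0.213).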
